A study of Mus musculus with 2 samples.

Results

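Transcripts of 10 genes for cytokine receptors and of the Jak-Stat pathway were followed in single yolk sac cells. The genes were taken by symbol from the deposited count tables and were *Csf2rb*, *Il6st*, *Ifnar1*, *Ifngr1*, *Flt3*, *Jak1*, *Jak2*, *Stat3*, *Stat5a* and *Socs2*, that is 10 of the 23154 genes with a row. The cells were PK44 cells of the mouse yolk sac at E10.0, embryonic day 10, which the study sorted as CD41-CD43-CD45-CD31+CD201+Kit+CD44+ cells from embryos on a C57BL/6 background. No treatment or genetic change was applied and there was a single condition. The sort selects endothelial cells with hemogenic potential, so the tables hold neither mature blood cells nor unsorted endothelium by design. Cells were picked by hand and sequenced with a modified STRT-seq protocol, which counts molecules at the 3′ end of polyadenylated RNA by unique molecular identifiers (UMIs).

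Library 1 held 43 cells and library 2 held 44, 87 cells in all, and no cell name occurred in both. The libraries had 8932527 and 12706360 counts, and a cell had between 13218 and 956593. Whether the libraries came from separate litters is not given in the sources used here. Endothelial identity was visible in both libraries: *Cdh5*, an endothelial cadherin, had a count in 43 of 43 and 44 of 44 cells. Transcripts of the sort genes did not all follow the gate, which was set on protein. *Kit* had a count in 34 and 32 cells. *Itga2b*, which encodes the CD41 of the sort, had counts in 23 and 33 cells, with 10 or more in 7 and 12. Both were named after their values were seen. *Runx1*, the transcription factor that endothelial cells need to become blood, had counts in 33 and 35 cells. *Ptprc*, which encodes the CD45 of the sort, had counts in 1 and 2 cells, and 3 cells had at least 100 counts each of *Col1a1*, *Col1a2*, *Col3a1* and *Lum*, genes of mesenchyme.

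Flt3, Kit and Csf1r are receptor tyrosine kinases, whereas the other receptors followed here have no kinase activity of their own. They hold Jak kinases at their cytoplasmic tails, ligand binding lets the Jaks phosphorylate each other and the receptor, and the Stat proteins that dock there move to the nucleus. Socs proteins are induced by Stats and turn the signal down. The gp130 chain, the common beta chain and Flt3 carry signals that blood progenitors use to survive and divide, and interferon signalling has been tied to the emergence of blood stem cells from embryonic endothelium.

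Levels were read as CPM, the counts of a gene scaled to 1000000 summed counts of a library. A 3′ count does not grow with transcript length, so CPM can be set side by side between genes as shares of counts. *Jak1*, the kinase used by gp130 and by interferon receptors, was the most abundant of the 10 genes, with 323 CPM in library 1 and 177 CPM in library 2 (250 ± 104 CPM, SD, n = 2). Its level exceeded that of each of the other 9 genes in both libraries.

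Below it came *Stat3*, the main Stat of gp130, at 109 and 81.2 CPM (95.02 ± 19.5 CPM, SD, n = 2). *Il6st*, which encodes gp130, the shared chain of the receptors for interleukin 6 and its relatives, stood at 62.1 and 66.6 CPM (64.4 ± 3.15 CPM, SD, n = 2). The *Stat3* levels did not overlap those of *Jak1* above or of *Il6st* below. From *Il6st* downwards each gene overlapped the next in level.

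*Ifnar1*, a chain of the type I interferon receptor, was at 39.0 and 80.0 CPM, and *Ifngr1*, the ligand-binding chain of the interferon-gamma receptor, at 23.1 and 75.2 CPM. Both were higher in library 2. *Stat5a*, a Stat used downstream of the common beta chain, was even between libraries at 26.4 and 24.9 CPM. *Jak2*, the kinase of the common beta chain and of the interferon-gamma receptor, had 33.1 and 17.7 CPM.

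Another 3 genes were near the lower end of what these libraries can show. *Csf2rb*, the common beta chain of the receptors for interleukin 3, interleukin 5 and GM-CSF, had 21.6 CPM in library 1 and no count in library 2. *Socs2*, an inhibitor of cytokine and growth hormone signalling, had 1.23 and 5.75 CPM. *Flt3*, a receptor tyrosine kinase of early blood progenitors, had 2.13 CPM in library 1 and none in library 2. A count of 0 in library 2 allows a level of up to 0.236 CPM and a share of cells with a count of up to 6.82%, taking 3 counts as the limit; cells that express the gene below detection are not bounded by it. Such limits and all intervals given here cover counting error only.

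**Figure D1:**
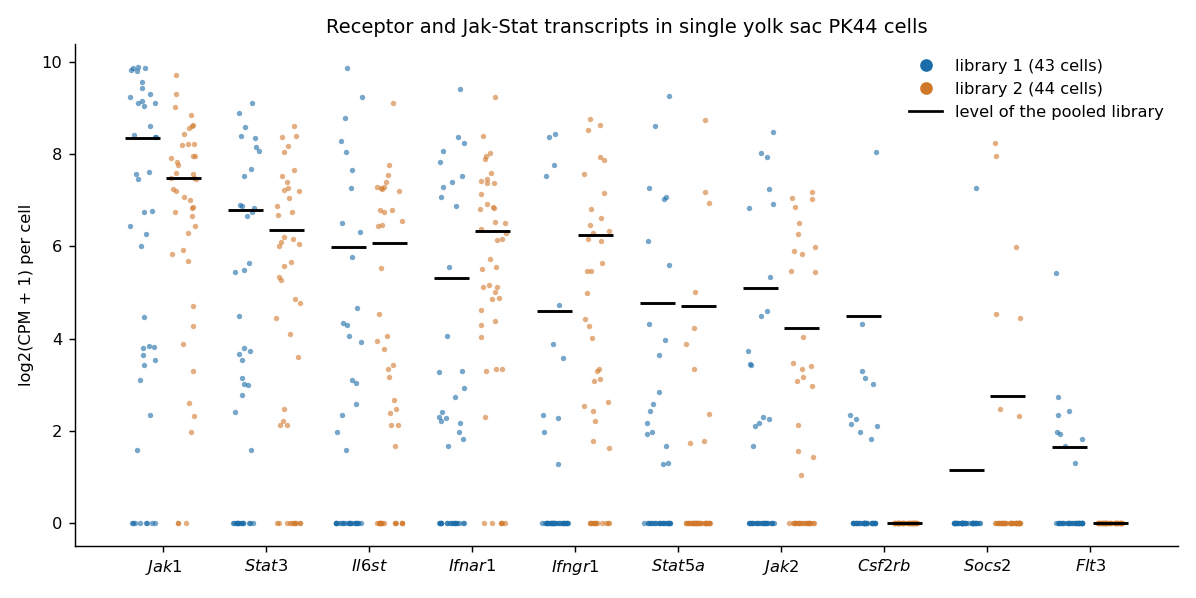
Each point is 1 cell, on a scale of log2(CPM + 1), by gene and library, and the black bars mark the CPM of the summed library. Points on the zero line have no count of the gene; *Jak1* had the fewest of them in library 2 and *Csf2rb* and *Flt3* had only zeros there.

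The libraries are replicates of 1 condition, and the spread between them was set against that of other genes. *Ifngr1* differed by 1.71 on the log2 scale, higher in library 2, where the absolute difference over 3724 genes of 30 to 100 CPM had a median of 0.54 and an upper quartile of 0.95. *Jak1* was lower in library 2 by 0.87 on the log2 scale, and the upper quartile over 1768 genes of 100 to 500 CPM was 0.69. *Ifnar1* differed by 1.04, also above the upper quartile for its range, and *Il6st* by 0.10. With 1 library on each side these differences have no test.

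The share of cells with a count followed a somewhat different order from the level. *Jak1* had a count in 35 of 43 cells of library 1 (81.4%, exact 95% interval 66.6 to 91.6) and in 41 of 44 cells of library 2 (93.2%). *Ifnar1*, although lower in CPM than *Stat3*, was found in 24 and 38 cells, against 28 and 33 for *Stat3*. *Il6st* was found in 21 and 29 cells and *Jak2* in 17 and 22.

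*Ifngr1* was found in 11 of 43 cells of library 1 (25.6%, exact interval 13.5 to 41.2) and in 31 of 44 cells of library 2 (70.5%). *Stat5a* went the other way, with 19 and 10 cells. Of the *Stat5a* counts, 72.5% lay in 3 cells in library 1 and 92.1% in library 2, so its level was carried by a few cells in both. *Socs2* was found in 1 cell and in 7 cells.

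Many of these cells held only a few counts. Of the 87 cells, 54 had at least 10 counts of *Jak1*, 38 of *Stat3*, 32 of *Ifnar1*, 26 of *Il6st* and 21 of *Ifngr1*. The number was 15 for *Jak2*, 9 for *Stat5a* and 4 for *Socs2*. Because depth differed between cells, each cell was also thinned to 20000 counts, which left out 1 cell of library 1. Of the 86 cells kept, 69.8% then had a count of *Jak1*, 48.8% of *Ifnar1*, 43.02% of *Stat3* and 29.1% of *Il6st*, and *Ifngr1* followed at 26.7%. Thinned shares of *Jak2* and *Stat5a* were 20.9% and 15.1%.

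**Figure D2:**
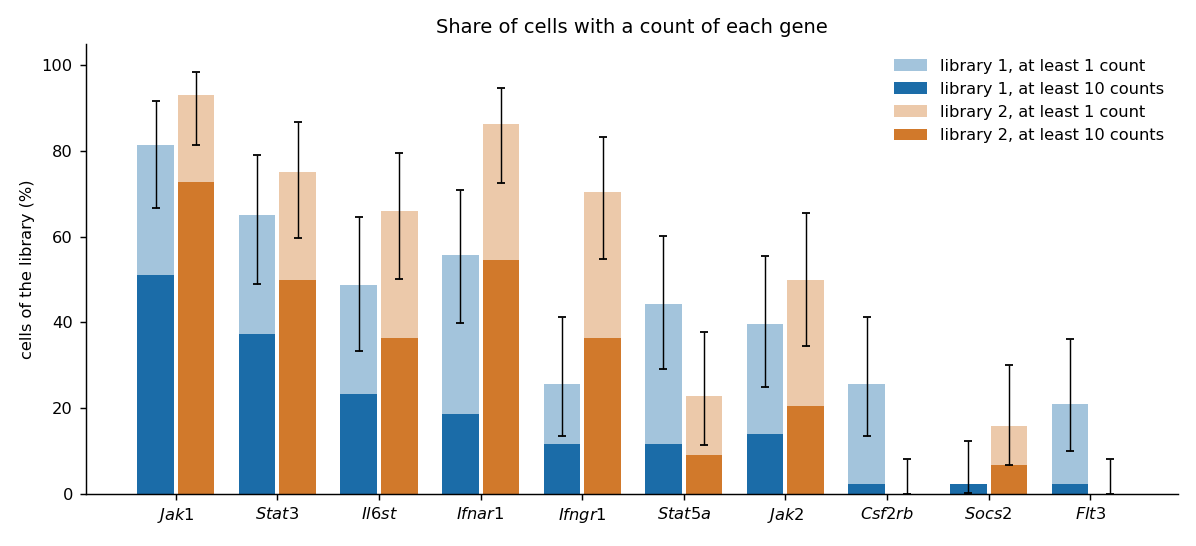
Bars give the percent of cells of a library with at least 1 count (pale) and at least 10 counts (dark) of each gene, with exact 95% intervals on the pale bars. Most genes had many cells with 1 to 9 counts, and *Ifngr1* and *Ifnar1* were found in a larger share of the cells of library 2.

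*Csf2rb* was in effect the transcript of a single cell. Of its 193 counts in library 1, 182 (94.3%) came from 1 cell, and the other 10 cells with a count had 1 or 2 each. Without that cell the level in library 1 was 1.33 CPM. Of the 8233 genes with at least 100 counts in library 1, 161 (1.96%) also had 90% or more of them in 1 cell, and in those genes the median number of other cells with 1 or 2 counts was 2.

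The cell with most *Csf2rb* had 688697 counts, the second deepest of library 1, and also held hematopoietic transcripts. It had 317 counts of *Runx1*, 145 of *Spi1*, which encodes the myeloid factor PU.1, 391 of *Coro1a*, a leukocyte actin regulator, and 211 of *Lyz2*, a myeloid lysozyme. It was the only cell of library 1 with counts of *Ptprc* (14), and it held 44 counts of *Spn*, which encodes the CD43 of the sort. It kept 155 counts of *Cdh5* and 150 of *Kit*. *Csf1r* was at 0 in it and *Mpo* at 2 counts. These genes were chosen after the values of the cell were seen, and the cell is 1 observation.

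*Flt3* had 19 counts in library 1, of which 11 lay in 1 cell and 8 cells held 1 each. The cell with 11 was another cell than the one with most *Csf2rb*, with 17 counts of *Runx1* and 18 of *Stat5a*. The 4 cells with 10 or more counts of *Socs2* comprised 1 in library 1 and 3 in library 2. The single *Socs2* cell of library 1 had 11 counts beside 38 of *Jak1* and 28 of *Stat5a*, with 66 of *Cdh5* and 2 of *Runx1*.

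*Csf2rb2*, the near-identical neighbour of *Csf2rb* on chromosome 15, had no count in either library, and reads that map to both copies would not have been counted as uniquely mapped, so the *Csf2rb* level is uncertain to that extent. On GRCm38 (GENCODE M21) *Csf2rb* spans chr15:78325752-78353847 and *Csf2rb2* chr15:78282507-78305721 on the opposite strand. *Stat3* (chr11:100885098-100939540, minus strand) and *Stat5a* (chr11:100859351-100885169, plus strand) are neighbours that run towards each other and share 72 bases at their 3′ ends. The 3′ end is what was counted, and whether counting used the strand is not given in the sources used here, so molecules of these genes could have been exchanged between them or lost as ambiguous. Their per-cell ranks correlated weakly, with Spearman rho 0.08 in the 43 cells of library 1 and 0.26 in the 44 cells of library 2, which share library and depth.

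Promoters from RefSeq on GRCm38 (250 bases before to 50 after the start) were matched for 8 of the 10 genes and searched on both strands for letters that Stat, interferon response and Runx factors are known to prefer. The Stat letters TTCNNNGAA were found in 1 of the 8, in *Ifnar1* across the start, and in 8.30% of all 32851 promoters. An interferon response motif (a pair of GAAA words, spaced by any 2 bases, on one strand) was found in 0 of the 8, against 3.44% of all. The Runx letters TGTGGT or TGCGGT were found in 2 of the 8, against 22.4% of all: *Stat5a*, where they lie 17 bases after the start, and *Flt3*. The stretch before the *Flt3* start is shown because it holds the only match to the Runx letters that lies before a start among these genes, and the stretch before the *Csf2rb2* start because it holds the Stat letters in the near-identical copy of *Csf2rb*. Capitals mark the match, and both stretches are on the minus strand of the genome, printed 5′ to 3′ along the gene.
*Flt3*, chr5:147400525-147400570, match (TGCGGT on the other strand) from 61 bases before the start: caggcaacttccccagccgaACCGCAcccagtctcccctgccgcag
*Csf2rb2*, chr15:78305722-78305756, match (TTCNNNGAA) from 15 bases before the start: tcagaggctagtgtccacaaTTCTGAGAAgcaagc
Both genes were at or near 0 in these cells. A match says only that the letters are present.

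A receptor signals through partners, so the transcripts were also counted together within cells. A cell held counts of a median of 4 of the 10 genes in library 1 and 5 in library 2. At least 1 receptor of the 5, 1 Jak and 1 Stat were found together in 27 of 43 and 35 of 44 cells. *Il6st*, *Jak1* and *Stat3*, the core of gp130 signalling, were found together in 16 and 22 cells, and with 10 or more counts each in 13 of the 87.

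For gp130 the partner chain with most joint cells was *Il11ra1*, the interleukin 11 receptor, found with *Il6st* in 41 of the 87 cells. *Lifr*, the receptor of leukemia inhibitory factor, was found with it in 36. *Il6ra*, the interleukin 6 receptor itself, was found with *Il6st* in 3 cells and *Osmr*, the oncostatin M receptor, in 11. These partner chains were named after their values had been seen. Taken alone, *Il11ra1* had a count in 32 and 38 cells and *Lifr* in 22 and 36. Whether these chains, or *Il6st*, *Jak1* and *Stat3*, occurred together beyond their separate shares was not tested.

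Both chains of the type I interferon receptor, *Ifnar1* and *Ifnar2*, had counts in 11 cells of library 1 and 22 of library 2. Both chains of the interferon-gamma receptor, *Ifngr1* and *Ifngr2*, occurred together with a count in no cell of library 1 and in 17 cells of library 2. *Ifngr2* had 4 counts in library 1 (0.448 CPM) and 573 in library 2 (45.1 CPM). *Csf2rb* and *Il3ra*, the interleukin 3 chain, occurred together in 8 cells, in none of them with 10 or more counts of each.

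Among pairs of the 10 genes, *Il6st* and *Stat3* had the highest rho in library 1, 0.43 over 43 cells (0.37 after thinning), and 0.07 over 44 cells in library 2. *Jak1* and *Jak2* had a rho of -0.15 and -0.26. Of the 45 pairs, these are described and not tested, since cells of a library share its preparation. Only *Ifnar1*, *Jak1* and *Stat3* had a count in at least 50% of the cells of both libraries, and for these 3 the most alike of 3660 genes were sought on thinned cells by the lower rho of the 2 libraries. *Ifnar1* was most like *Tbca* (0.47 and 0.36), *Nars* and *Smap2*. *Jak1* was most like *Ptk2* (0.41 and 0.37), *Ivns1abp* and *Stim2*. *Stat3* was most like *Xpot* (0.41 and 0.36), *Ube4b* and *Nfe2l1*. All of these are weak in sparse counts.

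To ask how the 10 genes related to *Runx1* within each library, cells were split at the median *Runx1* CPM of their own library. This gave 21 Runx1-high and 22 Runx1-low cells in library 1 and 22 of each in library 2. Summed *Runx1* was 457 against 15.8 CPM in library 1 and 226 against 2.94 CPM in library 2, which is the rule of the split and not a result. The counts of each group were summed per library, and the 4 sums were compared with the quasi-likelihood test of edgeR, with the library as a block and the Benjamini-Hochberg adjustment over 10629 genes.

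None of the 8 members tested passed the test, against 166 of 10629 genes (1.56%), of which 40 (0.376%) were higher and 126 (1.19%) lower in Runx1-high cells. None of the 8 reached an unadjusted p of 0.05 either, where 921 genes did; the smallest was 0.240, for *Stat3*. By DESeq2 the members called also numbered 0. *Csf2rb* and *Flt3* did not pass the filter on low counts, since most of their counts lay in 1 of the 4 sums; with no filter all 10 genes were tested and the members called numbered 0. With 2 libraries the standard error of a log2 fold change had a median of 1.15 over all genes, so these are wide limits and do not show that the genes were alike in both groups. Their median log2 fold change was -0.21, beside 0.07 for all genes tested, with 3 higher and 5 lower.

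*Stat3* was higher in Runx1-high cells in both libraries, with 129 against 71.9 CPM in library 1 and 94.2 against 61.9 CPM in library 2. The groups did not overlap, although 11 cells of each group of library 2 had at least 10 counts and 228 of the 716 counts in its Runx1-high cells came from 1 cell. The fitted log2 fold change was 0.69 (SE 0.59), with an adjusted p of 0.909 by edgeR. *Il6st* was lower in Runx1-high cells in both, with 58.3 against 69.0 CPM in library 1 and 57.3 against 80.3 CPM in library 2, and also did not overlap. It was found in more of the Runx1-high cells, in 12 of 21 against 9 of 22 cells in library 1 and in 16 against 13 of 22 in library 2. The Runx1-high cells were deeper in both libraries, with medians of 260240 against 95376 and 271734 against 213444 counts per cell. The part of depth in these shares was not tested. The fitted log2 fold change of *Il6st* was -0.40 (SE 0.71), with an adjusted p of 0.9997 by edgeR. It was -1.02 with thinned cells, which were split anew on their thinned *Runx1*. That split gave 20 Runx1-high and 22 Runx1-low cells in library 1, and 18 and 26 in library 2. *Stat3* and *Il6st* were 2 of the 8 genes tested without overlap, and 37.8% of all genes tested had none. Leaving out the 1 cell with most counts of the gene, a choice made after seeing the data, moved the mean difference of log2(CPM + 1) from 0.72 to 0.53 for *Stat3* and from -0.36 to -0.67 for *Il6st*.

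*Ifnar1* was also lower in Runx1-high cells of each library, at 30.04 against 55.2 CPM and at 75.2 against 87 CPM, but library 2 was above library 1 in both groups and the groups overlapped. *Jak1* had 262 CPM in Runx1-high and 435 CPM in Runx1-low cells of library 1, and 194 against 151 CPM in library 2. Its direction thus differed between the libraries, and the fitted log2 fold change was -0.22 (SE 0.38), the smallest standard error of the 8.

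*Ifngr1* stood in opposite order in the libraries. In library 2 it had 104 CPM in Runx1-high and 33.1 CPM in Runx1-low cells, with 12 and 4 cells of at least 10 counts. In library 1 it had 17.5 and 33.1 CPM, with 2 and 3 such cells. The fitted log2 fold change was 0.34 (SE 0.98).

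*Jak2* and *Stat5a* also differed in direction between the libraries, each higher in the Runx1-high cells of library 1 and lower in those of library 2. *Jak2* had 42.2 against 16.7 CPM in library 1 and 9.47 against 29.98 CPM in library 2. *Stat5a* had 34.9 against 11.0 CPM in library 1 and 20.5 against 31.5 CPM in library 2. In the Runx1-low cells of library 2, 157 of the 161 *Stat5a* counts came from 1 cell. Leaving out that cell was a choice made after seeing the data. It left 4 counts there against 156 in the Runx1-high cells, so the direction in library 2 turned to that of library 1. The mean difference of log2(CPM + 1) moved from 0.49 to 2.56. Most of those 156 counts also came from 1 cell, which was kept, so the sum of each group was carried mainly by 1 cell. The difference without both cells was not tested. *Socs2* had no count in the Runx1-high cells of library 1 and 11 in 1 Runx1-low cell, and 4.998 against 6.86 CPM in library 2.

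For *Csf2rb*, 189 of the 193 counts were in Runx1-high cells of library 1, 182 of them in the single cell described above, and the number of cells with a count was 7 of 21 against 4 of 22. For *Flt3*, 16 of the 19 counts were in Runx1-high cells, in 6 of 21 against 3 of 22 cells. The Runx1-high cells of library 1 were also deeper, with a median of 260240 against 95376 counts per cell, and the part of depth in these shares was not tested.

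**Figure D3:**
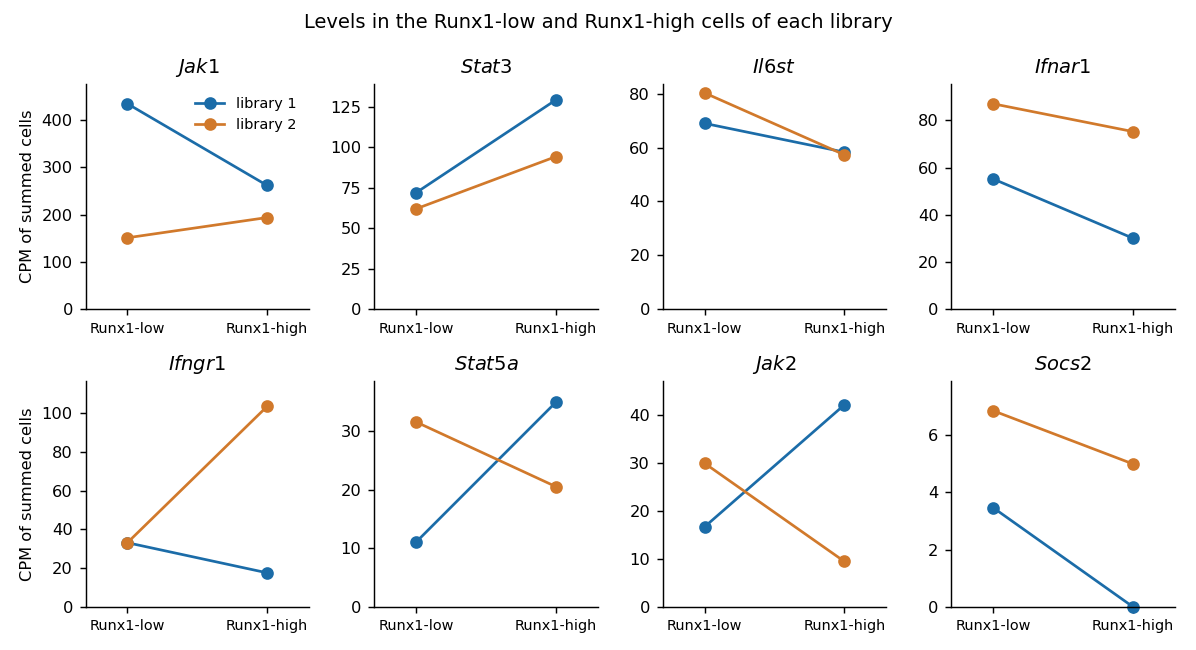
CPM of the summed Runx1-low and Runx1-high cells of library 1 (blue) and library 2 (orange) for the 8 genes that passed the filter on low counts, on linear axes from 0; lines join the sums of a library. *Stat3* was higher and *Il6st*, *Ifnar1* and *Socs2* were lower in the Runx1-high cells of both libraries without passing the test, and lines of the other 4 genes ran in opposite directions.

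The relation was also described by ranks across single cells. Spearman rho with *Runx1* was highest for *Ifngr1* in library 2, at 0.45 over 44 cells and 0.41 after thinning, and was 0.16 over 43 cells in library 1, or -0.14 after thinning. For 90% of 3660 genes with a count in at least 50% of the cells, rho lay between -0.27 and 0.46 in library 2 and between -0.18 and 0.39 in library 1. *Stat3* had a rho of 0.36 in library 1, where its rho with the depth of the cell was 0.60 and thinning left 0.12. In library 2 it had 0.11, or -0.09 after thinning. *Jak2* had 0.27 and -0.04, or 0.14 and -0.32 after thinning.

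For the remaining genes rho on all counts lay between -0.20 (*Ifnar1*, library 2) and 0.19 (*Flt3*, library 1). After thinning it lay between -0.22 (*Socs2*, library 2) and 0.27 (*Stat5a*, library 1), and *Ifnar1* in library 2 had 0.04. *Runx1* itself had a rho of 0.34 and 0.35 with depth, so cells and counts of *Runx1* and of these genes share depth, and no p is given.

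**Figure D4:**
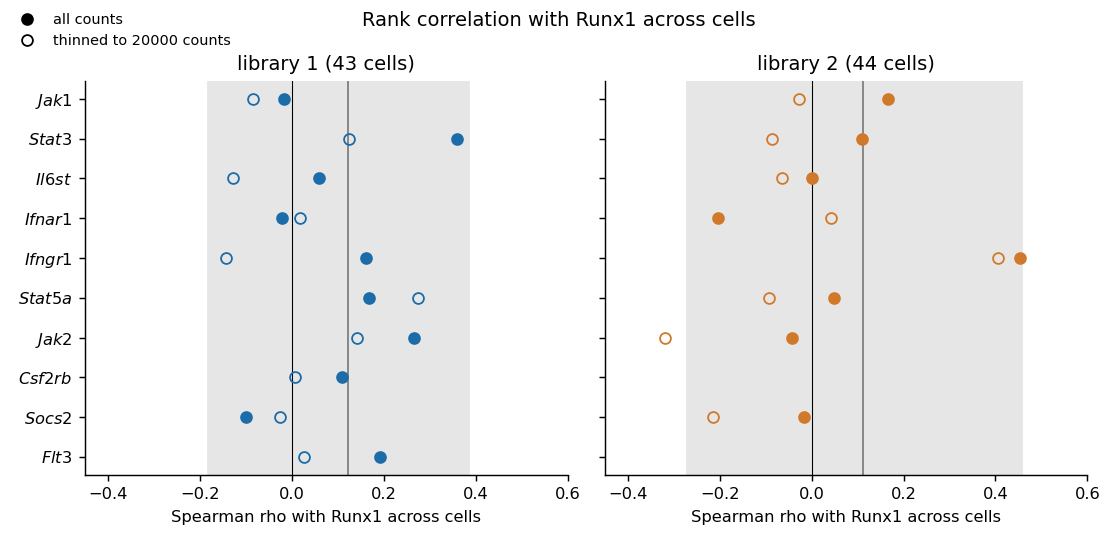
Spearman rho of each gene with *Runx1* across the cells of a library, on all counts (filled) and on counts thinned to 20000 per cell (open). Grey bands hold the central 90% of 3660 genes and the grey line their median; both come from all counts, and all filled points lie inside the bands.

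The other genes of the pathway were described from lists chosen with earlier results of these data known. Over all genes tested, 0.376% were called higher and 1.19% lower in Runx1-high cells. At these shares a short list can hold no call, so a 0 below says little about the pathway. Of 35 further cytokine receptors 29 had a count and 21 were tested, with 1 higher and 0 lower in Runx1-high cells. The one was *Kit*, the receptor of stem cell factor and a gene of the sort, at 258 against 119 CPM in library 1 and 132 against 18.0 CPM in library 2, a log2 fold change of 1.95 (SE 0.52) with an adjusted p of 0.0176 by edgeR. Without the library as a block its log2 fold change was 1.46 and its adjusted p 0.937 by edgeR, and the genes called overall fell from 166 to 1.

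By mean CPM the next of this list were *Il11ra1*, at 59.4 and 116 CPM, and *Lifr*, at 71.5 and 86.6 CPM. *Lifr* had 23.4 against 159 CPM in library 1 and 57.6 against 130 CPM in library 2 in Runx1-high and Runx1-low cells, and missed the threshold with a log2 fold change of -1.99 (SE 0.61) and an adjusted p of 0.0634 by edgeR. By DESeq2 *Osmr* was called lower, with an adjusted p of 0.0140, where edgeR gave 0.377. At 0 in both libraries were *Csf2rb2*, *Il5ra*, *Cntfr*, *Il2ra*, *Il2rb* and *Il7r*. The median log2 fold change of the 21 was -0.56.

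Of 22 ligands, 14 had no count in either library, among them *Il3*, *Il6*, *Csf2*, *Lif*, *Osm*, *Ifnb1* and *Ifng*. The most abundant of the others were *Csf1* (24.1 and 30.5 CPM), *Il15* (15.9 and 17.2 CPM) and *Kitl* (6.16 and 24.6 CPM), and 0 of 5 tested were called. *Flt3l*, the ligand of Flt3, had 13.5 and 0.0787 CPM, the first from 2 cells.

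Of the 7 other Jaks and Stats all were tested and 0 called. *Jak3*, the partner of the common gamma chain, had 22.3 and 74.2 CPM, and *Stat4* 42.7 and 36.5 CPM. *Stat5b*, the close relative of *Stat5a*, stood at 20.4 and 26.1 CPM.

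Inhibitors and adaptors gave 0 calls of 20 tested. The phosphatases *Ptpn11* (199 and 112 CPM) and *Ptpn1* (128 and 157 CPM) and the adaptor *Sh2b3* (119 and 179 CPM) were each more abundant than *Socs2*, *Cish*, *Socs1* or *Socs3* in both libraries. *Ptpn6*, the phosphatase SHP-1 of blood cells, chosen after its values were seen, had 140 against 69.7 CPM in library 1 and 124 against 11.2 CPM in library 2. Its log2 fold change was 2.19 (SE 0.67) with an adjusted p of 0.0637 by edgeR.

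Of the known targets of Stat3 and Stat5, 14 were tested and 0 called, the most abundant being *Id1* (271 and 451 CPM), *Ccnd2* (362 and 226 CPM) and *Junb* (139 and 216 CPM). Of the interferon-stimulated genes 19 were tested and 0 called. *Ifitm2* (626 and 986 CPM), *Ifitm3* (494 and 601 CPM) and *B2m* (201 and 462 CPM) were abundant in both libraries. Of the 26 listed, 4 were at 0 in both libraries and 5 in library 1 alone (*Isg15*, *Oas1a*, *Psmb8*, *Psmb9* and *Ddx58*), against 1 in library 2 alone (*Ifit3*). Zeros were also more common in library 1 over all genes. There, 1181 genes had 10 or more counts in library 2 and 0 in library 1, and 369 had the reverse.

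**Figure D5:**
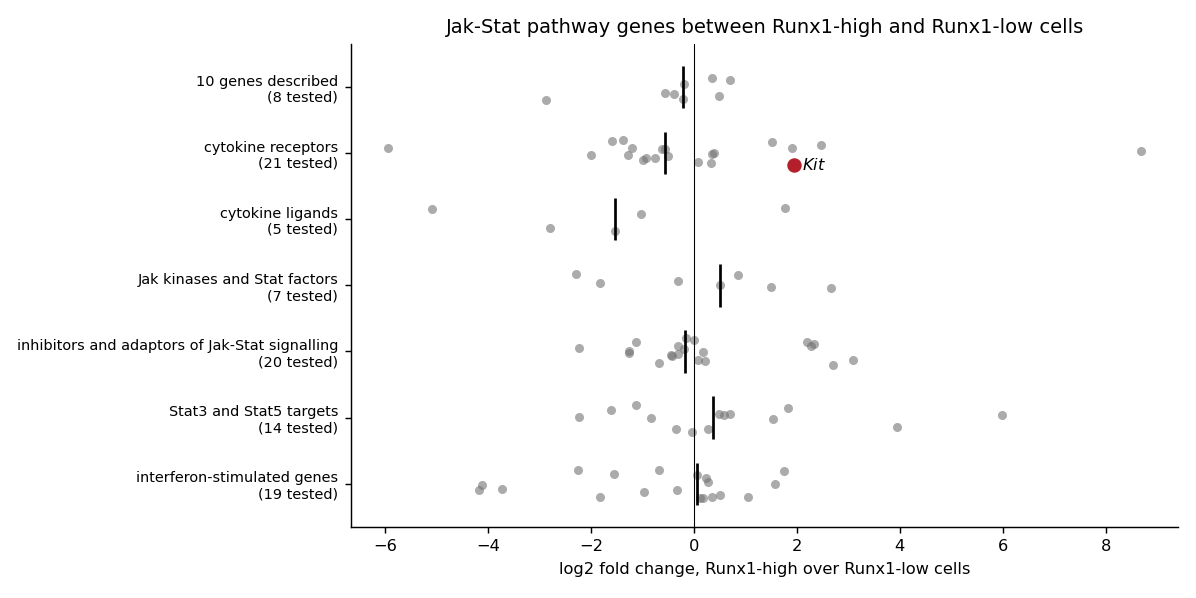
Each point is a tested gene, placed by its log2 fold change between Runx1-high and Runx1-low cells, with a black bar at the median of its list. *Kit* (red) was the only gene with an adjusted p under 0.05, and the 8 tested of the 10 genes described lay between -2.87 and 0.69.

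Some marker lists of cell identity had genes called in the same split. Of all genes tested, 0.376% were called higher and 1.19% lower in Runx1-high cells. The erythroid, megakaryocytic and visceral endoderm lists had 0 calls of 4, 3 and 2 genes tested. Megakaryocytic markers summed to 69.3 CPM in Runx1-high and 241 CPM in Runx1-low cells of library 1, and to 186 and 57.4 CPM in library 2. All 10 endothelial markers were lower in Runx1-high cells, and 7 of them were called. Those called included *Dll4* (log2 fold change -2.71), *Gja4* (-2.45), *Kdr* (-1.61) and *Efnb2* (-1.59). The 10 markers summed to 1651 against 4422 CPM in library 1 and 2936 against 6133 CPM in library 2. All 7 tested hematopoietic genes other than *Runx1* were higher, and *Adgrg1*, *Bcl11a* and *Neurl3* were called. Myeloid markers summed to 550 and 568 CPM in Runx1-high and 175 and 74.3 CPM in Runx1-low cells. Of 7 tested, *Coro1a* was called and gave 264 and 243 CPM of the Runx1-high sums. *Fcer1g*, named after its values were seen, had 63.2 against 70.0 CPM in library 1 and 190 against 34.3 CPM in library 2. Mesenchymal markers summed to 66.3 and 23.5 CPM in Runx1-high and 2408 and 817 CPM in Runx1-low cells, with 5 of 7 called. The mesenchymal sums rested on few cells: 1 cell held 62.3% of the *Col1a1* counts of library 1, and 3 cells of each library had 10 or more. Without the library as a block none of these but *Col1a1* had an adjusted p under 0.05. Their part in the values of the 10 genes was not tested, beyond leaving out the 3 mesenchymal cells or the 11 cells with *Ptprc* or *Spn*, under which the members called stayed at 0.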

How the data were processed

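Per the labels and the study's methods, the authors split reads by cell barcode, aligned them to mm10 with HISAT2 2.1.0, counted the uniquely mapped ones with HTSeq and kept distinct UMIs, and deposited the raw counts per gene and cell. Cells with few genes or transcripts, or with too many raw reads or genes, had been removed, and no doublet caller was run here. The highest total of a cell, 956593 counts, lay close to the study's upper limit on raw reads per cell. Whether every count was a distinct molecule was not tested. Strand handling is not given in the sources used here.

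All 87 cells were used. Counts were summed per library and Runx1 group. The quasi-likelihood test of edgeR 4.0.16 (R 4.3.3) was run after filterByExpr and TMM scaling, with p-values adjusted by Benjamini-Hochberg and a threshold of 0.05, leaving *Runx1* out of the calls. Both sums of a library come from the same library, which pairs them; their deviations from the group means correlated at 0.177 across genes. The p-values rest on a spread between these sums that edgeR shares across genes, and not on that of each gene alone. This spread may be technical. For *Il6st* the log2 fold change was -0.29 in library 1 and -0.49 in library 2, with an SE of 0.71. For *Ifngr1* it was -0.97 in library 1 and 1.64 in library 2, with an SE of 0.98. Shares have exact (Clopper-Pearson) 95% intervals; a count of 0 allows 3 counts. The script was tested on simulated data with no difference between libraries, which does not show how the test performs on these data. Alternatives were DESeq2 1.42.0, other size factors, filters, splits and thinned cells, and dropping the block, cells or a library. With thinned cells, or without mesenchymal cells or those with *Ptprc* or *Spn*, the cells were split anew at their own median *Runx1*. The groups of these alternatives thus differ from the main ones.

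The members and lists were chosen with earlier results of these data known. Named are the 10 genes, *Runx1*, *Csf2rb2* and, of each list, genes that passed (at most the 4 largest) and the 3 most abundant; others are named as chosen later, and 1 listed gene is not reported here. Symbols were matched to GENCODE M21 for 22124 of 23154 genes.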

Additional observations from a re-analysis of the deposited data

How the results depend on the processing

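No alternative called any member it tested: 10 with no low-count filter, 6 with thinned cells and 8 in the others, where DESeq2 gave *Socs2* no adjusted p. Over all genes, 40 were called higher and 126 lower in Runx1-high cells with the replicate block, and 0 and 1 without it. DESeq2 gave 80 and 214, a split by any *Runx1* count 1 and 4, thinned cells 12 and 52, and the 14 highest against the 14 lowest cells of each library 79 lower. On the pathway lists the 1 gene higher, *Kit*, became 0 without the block, with the split by any count and with thinned cells, where its log2 fold change was 1.46, 2.37 and 1.74 against 1.95, and DESeq2 called 1 lower (*Osmr*). Of the 166 genes, 160 were shared with DESeq2 and 54 with thinned cells.

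Log2 fold changes kept their direction in 83 of 94 recomputed values. *Jak1* turned to 0.0015 with thinned cells and 0.24 without cells with *Ptprc* or *Spn*, *Jak2* to 0.13 without the block and 0.30 without mesenchymal cells, *Stat5a* to -0.88 between the 14 highest and 14 lowest cells and -0.77 without cells with *Ptprc* or *Spn*, and *Socs2* to 0.050 with the split by any count. The cause was not tested. With 1 library left out, values ranged from -0.97 to 1.64 for *Ifngr1*, -0.78 to 0.36 for *Jak1*, -1.66 to 1.29 for *Jak2* and -0.62 to 1.61 for *Stat5a*, and 1 library allows no test. Levels moved by more than their spread in 7 of 60 recomputed values and shares of cells beyond their interval in 36 of 50. A higher minimum of counts can only lower a share and thinning removes counts, so part of the 36 follows from these settings. Shallow cells limit what a count of 0 shows.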
